A study of Mus musculus with 4 samples.

Results

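The nuclear genes of oxidative phosphorylation were taken from the 32285 genes of the deposited tables by symbol. A gene was a member when its symbol began with Nduf, Uqcr, Cox4i, Cox5, Cox6, Cox7 or Atp5, or was Sdha, Sdhb, Sdhc, Sdhd, Cox8a or Cycs. The rule found 93 genes. Of these, 7 encode core subunits of complex I, 30 its accessory subunits and 8 its assembly factors (symbols with Ndufaf). Complex II has 4 members, complex III 8, complex IV 18 (with Ndufa4 and Ndufa4l2) and the ATP synthase 17, 5 in its F1 head and 12 in its Fo membrane part and stalk. Cycs, cytochrome c, is the remaining member. The name of the list fits its genes with 3 qualifications: assembly factors are not subunits, Cox7a2l joins complexes III and IV, and Ndufb1-ps is annotated as a noncoding transcript.

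Single-cell RNA sequencing with molecular identifiers (UMIs) had been performed on glia-enriched brain suspensions of male mice in which human APOE3 or human APOE4 replaced the mouse Apoe gene. Of each genotype, one group received 5 mg/kg lipopolysaccharide (LPS, a bacterial endotoxin) by intraperitoneal injection and was killed 24 h later, and the other received NaCl. All 4 groups thus carried a human allele in place of the mouse gene, and each group was 1 library of 3 pooled mice whose cells cannot be assigned to a mouse. Without a replicate library no difference was tested, and intervals in parentheses are 95% intervals of counting error only, which leave out variation between mice and between library preparations. Values of the 4 libraries are always listed with APOE3 first and, within a genotype, NaCl before LPS.

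The libraries held 73288965 to 114378032 UMIs in 14122 to 29361 barcodes. APOE4 LPS stood apart: its median barcode had 1292 UMIs against 3969 to 5640.5 in the others, and 37.5% of its barcodes were below 1000 UMIs against 4.53% to 5.62%. The doublet caller marked 8.18% to 9.76% of barcodes in the other libraries and 7 barcodes (0.0385%) in APOE4 LPS, so it had not worked there and no doublet was removed from that library. Every comparison with APOE4 LPS carries this difference. After filtering, 32 clusters were found and 16 cell classes were named from marker genes, each meaning cells that look like that type. The labels call the cells non-neuronal, and a neuron-like class of 318 to 663 cells per library was among those named. Of APOE4 LPS, 6655 cells lay in the unnamed cluster 0 (median 1484 UMIs), which held 4 to 33 cells of each other library. A further 1489 lay in the unnamed cluster 10, which held 0 to 360 and was led by the macrophage genes Marco and Msr1 and the chemokine gene Ccl5. Neither enters a class. How APOE4 LPS cells were divided between microglia and cluster 10 changed between runs of the clustering, and microglial values are given below with that limit. A pair of libraries shared 61 to 140 barcodes, 0.432% to 0.963% of the smaller library. For each class and library the UMIs of a gene were added up and given per 1000000 UMIs of the class (CPM), so that a level is a share of the UMIs counted in those cells. A member counted as measured in a class when at least 1 library held 10 of its UMIs: 93 did so in astrocytes, 92 in microglia and oligodendrocytes (all but Cox7b2), 91 in endothelial cells (without Cox6a2 as well) and 90 in choroid plexus cells (without Cox7b2, Cox6a2 and Cox4i2).

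Oxidative phosphorylation passes electrons from NADH through complex I, and from succinate through complex II, to complex III, on by cytochrome c to complex IV, and finally to oxygen. The protons that complexes I, III and IV pump across the inner mitochondrial membrane return through the ATP synthase, complex V, which makes ATP. Most subunits are encoded in the nucleus and a small number by mitochondrial DNA, and a change of myeloid cells between this pathway and glycolysis is a much studied feature of their activation by LPS.

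Promoters of 5 members are shown: the 3 with the highest LPS ratio in APOE4 microglia among members with a mean of at least 100 UMIs (Cycs, Ndufa12 and Atp5g1), and Atp5g3 and Cox6a1 as the next members in that order whose promoter holds the flanked motif named below. They are reference sequences of RefSeq in build GRCm38.p6, from 250 bases before to 50 after an annotated start, written 5′ to 3′ on the strand of the gene. Motif matches on either strand are in capitals, and a match on the opposite strand reads as the reverse complement. The motifs are the palindromic cyclic AMP response motif (CREB, TGACGTCA), the core of the nuclear respiratory factor 1 motif (NRF1, CGCANGCG) and an ETS motif (CCGGAAG). The core is flanked where it has G before and C after it, and is then capitalized with both.
Cycs, electron carrier, chr6:50566520-50566819, minus strand: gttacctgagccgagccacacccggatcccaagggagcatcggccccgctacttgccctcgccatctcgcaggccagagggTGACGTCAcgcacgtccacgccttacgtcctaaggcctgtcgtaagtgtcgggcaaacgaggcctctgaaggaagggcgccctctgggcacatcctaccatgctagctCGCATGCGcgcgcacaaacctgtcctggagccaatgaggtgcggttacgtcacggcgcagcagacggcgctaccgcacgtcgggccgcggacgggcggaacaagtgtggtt
Ndufa12, complex I, chr10:94198785-94199084, plus strand: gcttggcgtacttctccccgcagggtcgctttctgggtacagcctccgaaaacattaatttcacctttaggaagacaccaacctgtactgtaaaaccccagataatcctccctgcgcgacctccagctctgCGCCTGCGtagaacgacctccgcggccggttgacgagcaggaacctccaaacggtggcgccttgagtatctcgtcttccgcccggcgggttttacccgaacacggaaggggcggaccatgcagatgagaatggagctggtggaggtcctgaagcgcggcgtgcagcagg
Atp5g1, c ring of ATP synthase, chr11:96075582-96075881, minus strand: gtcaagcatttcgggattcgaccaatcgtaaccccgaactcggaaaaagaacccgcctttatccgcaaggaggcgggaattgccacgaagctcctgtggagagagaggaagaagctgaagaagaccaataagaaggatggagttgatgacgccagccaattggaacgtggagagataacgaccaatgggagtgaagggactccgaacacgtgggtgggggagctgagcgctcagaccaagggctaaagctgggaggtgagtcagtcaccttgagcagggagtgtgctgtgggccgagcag
Atp5g3, c ring of ATP synthase, chr2:73911277-73911576, minus strand: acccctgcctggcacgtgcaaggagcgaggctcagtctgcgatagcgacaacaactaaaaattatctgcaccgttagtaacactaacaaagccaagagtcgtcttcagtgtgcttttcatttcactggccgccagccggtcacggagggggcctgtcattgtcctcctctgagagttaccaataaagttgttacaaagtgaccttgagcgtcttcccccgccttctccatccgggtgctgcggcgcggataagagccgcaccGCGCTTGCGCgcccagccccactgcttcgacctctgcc
Cox6a1, complex IV, chr5:115348909-115349208, minus strand: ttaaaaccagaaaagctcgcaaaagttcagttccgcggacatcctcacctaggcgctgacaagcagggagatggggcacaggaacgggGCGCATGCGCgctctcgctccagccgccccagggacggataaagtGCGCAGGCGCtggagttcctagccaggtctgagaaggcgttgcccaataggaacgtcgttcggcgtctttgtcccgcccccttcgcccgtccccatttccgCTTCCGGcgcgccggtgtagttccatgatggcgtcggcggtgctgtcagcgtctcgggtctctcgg
Cycs held the CREB motif and the NRF1 core. Ndufa12 held the core alone and Atp5g3 the flanked core, both on the opposite strand. Cox6a1 held the flanked core at 2 places and, on the opposite strand, the ETS motif. None of the searched letters occurred in the window of Atp5g1.

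RefSeq promoters were matched for 75 of the 93 members, which had 80 of them, and both strands were searched. The flanked NRF1 core occurred in 20 of the 80 (25%), against 4.60% of all 32851 promoters of the same length, and the core in 33 (41.2%), against 8.21%. Every promoter with the flanked form is also counted for the core. The ETS motif occurred in 19 (23.8%) against 8.86%, a YY1 motif (AAGATGGCG) in 8 (10%) against 1.403%, and the CREB motif in 5 (6.25%, those of Cycs, Ndufa10, Ndufa11, Ndufb2 and Uqcrfs1) against 1.79%. These are matches of letters, and no binding was measured.

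Across the 16 classes the share of UMIs that came from the 93 genes was highest in choroid plexus cells, the epithelium that secretes cerebrospinal fluid and is known to be rich in mitochondria. There it was 6.54%, 5.49%, 8.48% and 5.46%. Fibroblasts followed with 2.67%, 2.65%, 2.81% and 2.58% and smooth muscle cells with 2.68%, 1.83%, 3.27% and 2.51%. Oligodendrocyte precursors were at the other end with 0.657%, 1.09%, 0.885% and 1.32%. Microglia gave 1.25% (1.24 to 1.25), 1.70% (1.69 to 1.70), 1.25% (1.24 to 1.25) and 1.73% (1.72 to 1.74), and the remaining classes lay between 1.08% and 2.57% in every library. Choroid plexus was above every other class in each library, while among astrocytes, ependymal cells, neurons, endothelial cells and pericytes the 4 values of one class overlapped those of the next.

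**Figure D1:**
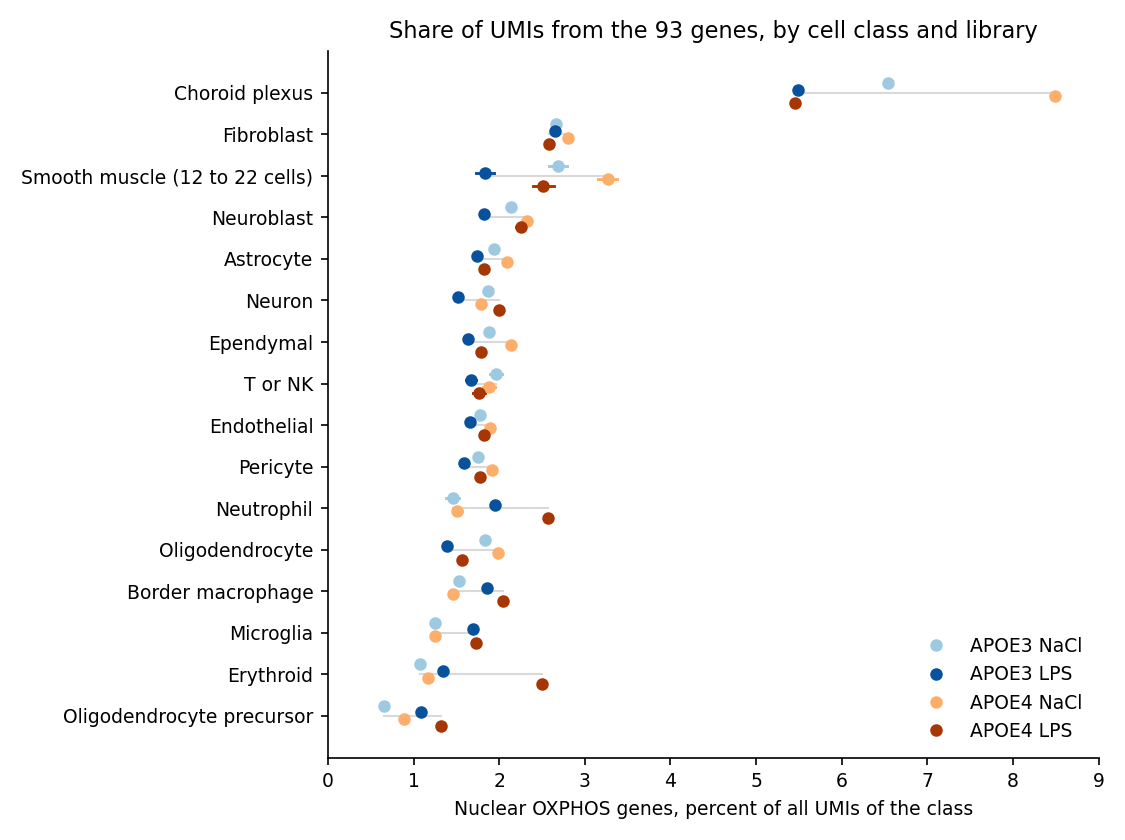
Share of all UMIs of a class that came from the 93 genes (x axis, percent), by cell class (y axis); each point is 1 library, short horizontal bars are 95% counting intervals and the grey line spans the 4 libraries. Choroid plexus cells lie between 5.46% and 8.48%, and both LPS points lie to the right of both NaCl points in microglia, border macrophages, oligodendrocyte precursors, neutrophils and erythroid cells.

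The plot of shares by class also shows how the LPS and NaCl libraries were ordered. Both LPS libraries were above both NaCl libraries in microglia, in border macrophages (1.53%, 1.86%, 1.46% and 2.05%), in oligodendrocyte precursors, in neutrophils (1.46%, 1.95%, 1.51% and 2.57%) and in erythroid cells (1.08%, 1.35%, 1.17% and 2.50%). Both were below in oligodendrocytes (1.83%, 1.395%, 1.99% and 1.57%), astrocytes (1.94%, 1.74%, 2.09% and 1.82%), choroid plexus cells and ependymal cells (1.88%, 1.63%, 2.13% and 1.78%), and also in fibroblasts, smooth muscle cells and T or NK cells. In endothelial cells (1.78%, 1.66%, 1.89% and 1.82%), pericytes (1.75%, 1.59%, 1.91% and 1.78%), neurons and neuroblasts the libraries overlapped. Several of these classes were small: 16 to 168 neutrophils, 105 to 232 precursors, 12 to 22 smooth muscle cells and 33 to 63 T or NK cells per library. Of the erythroid cells, 1417 came from APOE4 LPS and 29 to 49 from each other library. Ccl5 and Saa3 were among the leading genes of that cluster, as they were of the unnamed cluster 0.

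Microglia, the resident macrophages of the brain, had the opposite order to oligodendrocytes and astrocytes. LPS libraries had more UMIs from these genes, and the difference ran through every complex. Complex I gave 0.394%, 0.4996%, 0.398% and 0.513% of microglial UMIs, complex III 0.115%, 0.164%, 0.117% and 0.165%, complex IV 0.347%, 0.492%, 0.344% and 0.488% and the ATP synthase 0.336%, 0.474%, 0.333% and 0.491%. Complex II, which is shared with the citric acid cycle, gave 0.0260%, 0.0310%, 0.0266% and 0.0300%. In each of these complexes the NaCl libraries lay close together, and the LPS libraries were higher and also close to each other. The cells compared numbered 3213, 4126, 2925 and 1357 and held 4608, 7830.5, 4766 and 6489.7 UMIs on average, so LPS microglia also held more UMIs per cell.

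Gene by gene, the median log2 ratio of LPS to NaCl over the 92 measured members was 0.41 in APOE3 and 0.43 in APOE4, against -0.15 and -0.052 over all 15410 genes measured in microglia. Ratios are of log2(CPM + 1), which understates the difference of genes near 0. In APOE3, 20 of 92 members were at least 1.5-fold higher with LPS, where 7.01% of all measured genes were, and 0 were as far lower, where 14.8% of all genes were. In APOE4, 23 were higher (background 11%) and 0 lower (background 12.4%). At 1.2-fold, 59 members were higher and 2 lower in APOE3, and 66 higher and 1 lower in APOE4, against backgrounds of 17.3% higher and 38.4% lower in APOE3 and 24.7% and 31.2% in APOE4. The APOE4 value depended on which cells were counted as microglia: the median was 0.56 and 0.70 with 2 single-seed clustering runs. It was 0.80 with 62 members past 1.5-fold higher when the unnamed cluster 10 was added (background 12.3%). With median-of-ratios size factors the APOE3 median was 0.56 and 41 members were past 1.5-fold higher (background 9.89%).

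Among members with a mean of at least 100 UMIs, the electron carrier and Ndufa12 of complex I had the highest ratios in APOE4, and Cox6a2, described below, in APOE3. Cycs was at 84.1, 143, 74.1 and 175 CPM, 1.70-fold higher (1.60 to 1.81) with LPS in APOE3 and 2.36-fold higher (2.18 to 2.56) in APOE4. Ndufa12, an accessory subunit, was at 60.2, 115, 56.9 and 123 CPM, 1.92-fold higher (1.78 to 2.06) in APOE3 and 2.15-fold higher (1.96 to 2.36) in APOE4. In both genes the NaCl libraries were the lowest and APOE4 LPS was the highest. The ratios of Cox4i2 and Ndufa4l2 in APOE4 were above these, but on 13, 30, 5 and 31 and 12, 34, 12 and 45 UMIs. Both are counted among the members past 1.5-fold in APOE4. Summed pericyte markers (none of 6 at 0) were at 22.7, 18.2, 24.2 and 82.3 CPM in microglia, highest in APOE4 LPS. Their part in these ratios was not tested. The 7 core subunits of complex I, which carry its electron path, had medians of 0.27 and 0.15, with 0 and 0 past 1.5-fold. The 30 accessory subunits had medians of 0.35 and 0.41, with 4 and 6 past 1.5-fold. In this group were Ndufb8 (98.8, 172, 106 and 158 CPM) and Ndufb6 (39.3, 65.0, 41.6 and 66.3 CPM), both part of the membrane arm, where NaCl and LPS libraries did not overlap.

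Assembly factors of complex I did not share this order. Their medians were -0.14 and -0.0098, and none of the 8 was past 1.5-fold higher on the log2(CPM + 1) scale in either genotype. Ndufaf2, a factor bound late in assembly and a relative of Ndufa12, was at 40.9, 28.2, 42.6 and 41.0 CPM, 1.45-fold lower (1.31 to 1.61) in APOE3 and 1.04-fold lower (0.910 to 1.19) in APOE4. APOE3 LPS was its lowest library and the other libraries were level. Ndufaf7, a methyltransferase that acts on a core subunit, was at 43.8, 37.0, 39.9 and 36.1 CPM, lower in both LPS libraries. Ndufaf4 was at 28.0, 26.5, 23.2 and 33.8 CPM, with APOE4 LPS above the other libraries. Ndufaf1 and Ndufaf5 were at 8.98, 7.86, 9.33 and 8.18 CPM and 10.7, 7.89, 6.46 and 10.1 CPM. For Ndufaf1 both LPS libraries were just below both NaCl libraries, and for Ndufaf5 the groups overlapped.

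In complex II the catalytic subunit Sdha ran against the others. It was at 85.4, 77.3, 91.4 and 83.1 CPM, below NaCl in both LPS libraries, 1.11-fold lower (1.03 to 1.18) in APOE3 and 1.10-fold lower (1.003 to 1.21) in APOE4. Its iron-sulphur partner Sdhb was at 70.7, 102, 75.4 and 89.1 CPM and the membrane anchors Sdhc and Sdhd at 61.0, 70.1, 50.2 and 65.7 CPM and 42.6, 60.4, 49.0 and 61.8 CPM. All of these partners were higher with LPS in both genotypes. None of the 4 was past 1.5-fold on the log2(CPM + 1) scale.

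Complex III and complex IV contributed the small subunits. Uqcrq, a subunit of complex III, was at 185, 321, 177 and 322 CPM, 1.73-fold higher (1.66 to 1.80) in APOE3 and 1.82-fold higher (1.73 to 1.92) in APOE4, and Uqcr11 was at 213, 344, 205 and 361 CPM. The complex III members past 1.5-fold numbered 3 of 8 and 3 of 8. In complex IV, 7 of 17 measured members were past 1.5-fold in APOE3 and 6 of 17 in APOE4, the latter with the sparsely counted Cox4i2 and Ndufa4l2. Cox5a was at 109.8, 191, 114 and 202 CPM, 1.74-fold higher (1.65 to 1.84) and 1.76-fold higher (1.65 to 1.89). Cox7b was at 169, 278, 152 and 299 CPM, 1.64-fold higher (1.57 to 1.72) and 1.96-fold higher (1.85 to 2.08). Cox8a and Cox4i1, abundant subunits found in all tissues, were at 560.1, 769, 585 and 769.9 CPM and 504, 702, 446 and 619.5 CPM. For all of these genes both LPS libraries were above both NaCl libraries.

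Cox7a2l, also called SCAF1, joins complex III to complex IV in supercomplexes, and its order differed from that of the subunits. It was at 169, 189, 183 and 142 CPM, 1.12-fold higher (1.07 to 1.17) with LPS in APOE3 and 1.29-fold lower (1.202 to 1.38) in APOE4. APOE4 LPS was thus its lowest library and APOE3 LPS its highest.

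Subunits of the ATP synthase had medians of 0.54 and 0.47 in the F1 head and 0.47 and 0.52 in Fo and the stalk. Atp5g1, Atp5g2 and Atp5g3 encode the same mature c-ring protein from different genes. Atp5g1 was at 208, 340.5, 177 and 365 CPM, 1.63-fold higher (1.57 to 1.70) and 2.06-fold higher (1.95 to 2.17). Atp5g3 was at 106, 152, 97.1 and 174 CPM, 1.44-fold higher (1.36 to 1.52) and 1.79-fold higher (1.66 to 1.93). Atp5g2 was at 338, 452, 350.0 and 472 CPM. Of the c-ring genes, Atp5g1 and Atp5g3 had the wider distance between LPS and NaCl in APOE4. Atp5o, the stalk subunit that holds the F1 head, was at 82.8, 115, 76.2 and 117 CPM, and the catalytic subunit Atp5b at 152, 222, 149 and 240.1 CPM, both higher in each LPS library than in either NaCl library. Atpif1, which encodes the inhibitor of the synthase and is outside the symbol rule, was at 277, 335, 274 and 369 CPM.

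**Figure D2:**
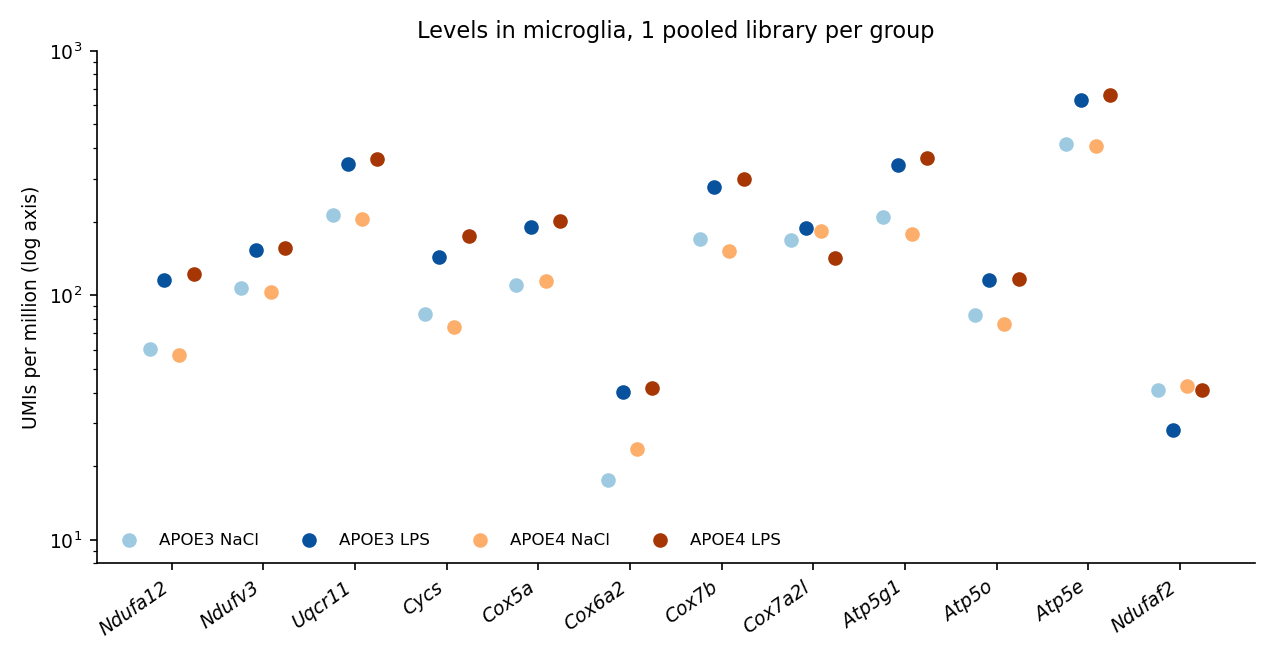
Levels of 12 members in microglia (y axis, CPM on a log axis), each point 1 pooled library, with no error bars. Both LPS points lie above both NaCl points for Ndufa12, Cycs, Cox5a and Atp5g1, while Cox7a2l is lowest in APOE4 LPS and Ndufaf2 is lowest in APOE3 LPS.

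The LPS ratio was larger in APOE4 than in APOE3 for 53 of 92 members, with a median difference of 0.051 (log2, APOE4 minus APOE3) against 0.092 over all genes, so the members did not stand above all genes in this measure. Past 1.5-fold, 4 members were higher in it and 1 lower, against 8.18% and 3.63% of all genes. The sparsely counted Cox4i2 and Ndufa4l2 were among the 4. For Cycs the difference was 0.47 (0.33 to 0.62), for Ndufaf4 0.60 (0.34 to 0.91) and for Ndufaf5 0.98 (0.58 to 1.60). It was of the opposite sign for Cox7a2l, -0.52 (-0.64 to -0.40), and for Cox6a2, -0.34 (-0.65 to -0.071). It was not tested, and it rests on the library that stood apart: the median was 0.28 with clustering seed 2 and 0.36 with cluster 10 added. With NaCl alone the genotypes differed little in microglia: the median was 0.012, 0 members were past 1.5-fold higher (background 1.59%) and 1 lower (background 1.59%), namely Ndufaf5.

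**Figure D3:**
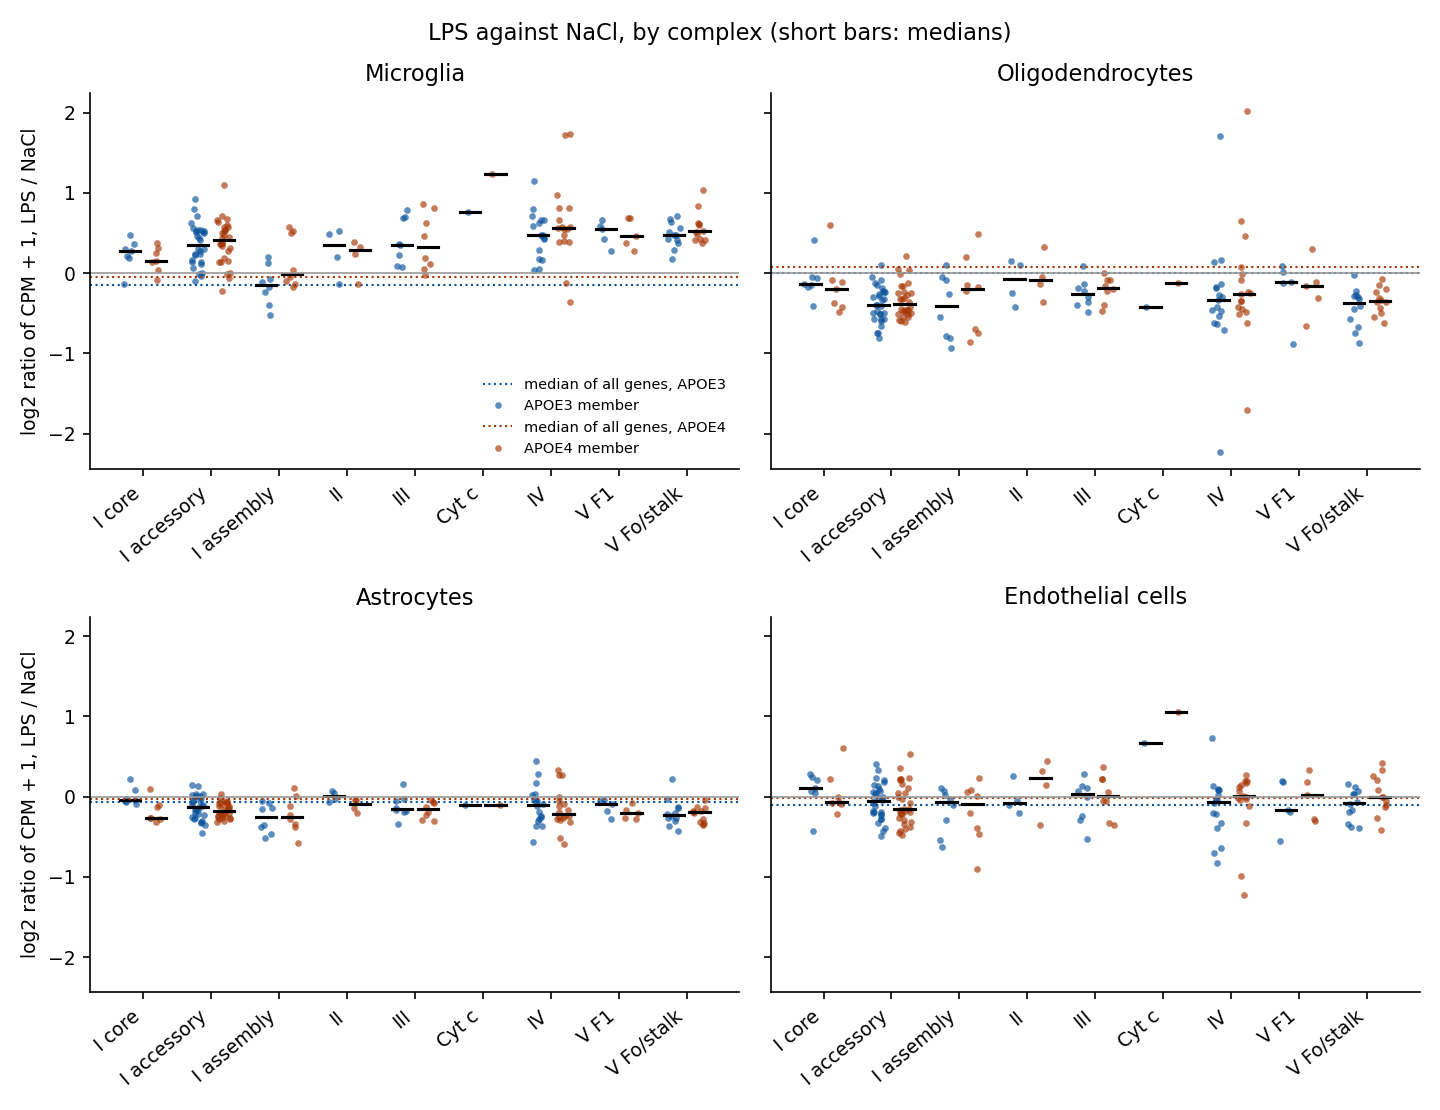
Log2 ratio of LPS to NaCl (y axis) of each measured member, by complex (x axis), in 4 classes; each point is a gene, blue in APOE3 and brown in APOE4, short bars are medians and dotted lines the medians of all measured genes. Medians lie above 0 in every complex of microglia except the assembly factors, and most points lie below 0 in oligodendrocytes.

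The plot by complex sets microglia beside the other main classes, and the microglial difference went with a change of clusters. Microglia of the NaCl libraries lay mostly in clusters 5 and 7 and those of the LPS libraries in clusters 6, with the cytokine genes Tnf and Il1b among its leading genes, and 8. Within cluster 6 the members' share was 1.71% in 124 APOE3 NaCl cells and 1.63% in 2174 APOE3 LPS cells, against 1.70% in 48 APOE4 NaCl cells and 1.68% in 654 APOE4 LPS cells. The median log2 ratio inside cluster 6 was -0.063 in APOE3, of the opposite sign to the whole class (Cycs -0.52, Atp5g1 -0.36). In cluster 8 the shares were 2.05%, 1.80%, 1.94% and 1.87%, with 89 and 42 NaCl cells. In clusters 5 and 7 the 4 libraries lay between 1.19% and 1.35%, with 28 to 58 LPS cells each. The few NaCl cells that clustered with LPS cells thus had shares above those of other NaCl cells and slightly above those of LPS cells. The unnamed cluster 10 held 2.65% in APOE4 LPS and 2.08% in APOE3 LPS, above the share of LPS microglia in the same library.

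Per microglial cell, with each cell thinned to 1000 UMIs, the median share was 1.2%, 1.6%, 1.2% and 1.6%, and without thinning 1.198%, 1.60%, 1.21% and 1.64%. Summed astrocyte markers (none of 8 at 0) were at 436, 396, 386 and 358 CPM and oligodendrocyte markers (none of 7 at 0) at 162, 91.0, 199.6 and 96.0 CPM. Neutrophil markers were at 0.878, 15.9, 1.87 and 19.3 CPM (2, 0, 3 and 1 of 6 at 0 in the 4 libraries: Retnlg, Ly6g in APOE3 NaCl, Mmp9, Ly6g, Cxcr2 in APOE4 NaCl, Ly6g in APOE4 LPS), higher with LPS, and their part in the result was not tested. Microglial markers were at 26180.2, 27333, 27121 and 24766 CPM. Without cells that held 3 or more UMIs of other main classes' markers, which kept 57.8%, 41.3%, 56.2% and 51.8% of the cells, the members' share was 1.28%, 1.77%, 1.30% and 1.83%.

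Other genes of the mitochondrion gave a graded picture in microglia. Of the 13 mitochondrially encoded subunits, 9 were past 1.5-fold higher in APOE3 and 6 in APOE4, with medians of 0.93 and 0.56. Their summed share was 1.31%, 2.77%, 1.499% and 2.35%. The 78 measured genes of the mitochondrial ribosome had medians of 0.26 and 0.31, the 19 of the citric acid cycle 0.049 and 0.18, and the 14 regulators of mitochondrial biogenesis -0.15 and -0.068. Assembly factors outside the symbol rule, 38 in number, had medians of -0.020 and 0.11, and the members' own assembly factors also had medians close to or below 0. The 83 proteins of the cytosolic ribosome were further from 0 than the members, with medians of 0.61 and 0.46 and a summed share of 9.27%, 13.7%, 9.18% and 12.6%. A higher share in LPS microglia was therefore not particular to oxidative phosphorylation.

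Border macrophages, which line the meninges and vessels, had the same order as microglia in smaller numbers of cells (129, 162, 99 and 122). Of the 93 members 85 were measured, with medians of 0.28 in APOE3 and 0.45 in APOE4 against -0.070 and -0.16 over all genes. In APOE3, 10 were past 1.5-fold higher (background 17.3%) and 2 lower (background 21.1%), and in APOE4 28 were higher (background 19.5%) and 2 lower (background 29.7%). The APOE3 count of higher members was below the background. Cycs was at 69.6, 147, 47.4 and 186 CPM, Uqcrq at 225, 367, 198 and 404 CPM and Cox5a at 151, 275, 178 and 332 CPM. Cox7a2l was lower with LPS in both genotypes, at 195, 96.7, 134 and 93.8 CPM. Choroid plexus markers (1, 0, 2 and 3 of 6 at 0 in the 4 libraries: Clic6 in APOE3 NaCl, Clic6, Prlr in APOE4 NaCl, Folr1, Clic6, Prlr in APOE4 LPS) were at 564, 912, 3586 and 366 CPM in these cells, highest in APOE4 NaCl, and neutrophil markers (4, 2, 5 and 3 of 6 at 0 in the 4 libraries) at 58.4, 96.7, 69.7 and 274 CPM, and their part in the result was not tested.

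Oligodendrocytes, the myelin-forming cells, had the reverse order. The members' share was 1.83% (1.82 to 1.84), 1.395% (1.39 to 1.401), 1.99% (1.98 to 1.998) and 1.57% (1.56 to 1.57), lower with LPS in both genotypes. Complex I gave 0.615%, 0.478%, 0.684% and 0.536%, complex IV 0.556%, 0.401%, 0.592% and 0.445% and the ATP synthase 0.428%, 0.327%, 0.468% and 0.374%, all lower with LPS, while complex II was at 0.0283%, 0.0267%, 0.0292% and 0.0291%, with the libraries overlapping. The median over 92 measured members was -0.30 in APOE3 and -0.29 in APOE4, against 0.0068 and 0.076 over all 15035 genes. In APOE3, 16 members were past 1.5-fold lower (background 8.81%) and 1 higher (background 12.8%). In APOE4, 10 were lower (background 8.37%) and 3 higher (background 19.3%), so the count of lower members in APOE4 was near the background. Below 0 were 81 of 92 members in APOE3 and 79 in APOE4. With each cell weighted alike the APOE4 median was -0.19.

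The lowest ratios in oligodendrocytes belonged to small subunits and to assembly factors. Cox6b2, known as the testis form of a complex IV subunit, was at 21.8, 3.85, 14.7 and 3.82 CPM, 5.65-fold lower (4.32 to 7.46) with LPS in APOE3 and 3.86-fold lower (2.69 to 5.68) in APOE4. Cox6b1, its widely expressed partner, was at 267, 238, 301 and 252 CPM. Both genes were lower in each LPS library than in either NaCl library. Ndufaf8, a partner of Ndufaf5, was at 50.8, 26.1, 50.1 and 27.2 CPM, 1.95-fold lower (1.72 to 2.21) and 1.84-fold lower (1.59 to 2.14). Ndufaf2 was at 127, 73.5, 123 and 75.1 CPM, 1.73-fold lower (1.61 to 1.87) and 1.64-fold lower (1.49 to 1.79). For both assembly factors the LPS libraries were close to each other and well below the NaCl libraries.

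In the ATP synthase of oligodendrocytes, the stalk subunit epsilon, Atp5e, was at 385, 209, 407 and 258 CPM, 1.85-fold lower (1.77 to 1.93) and 1.58-fold lower (1.503 to 1.66). Atp5k, subunit e of the membrane part, was at 308, 168, 316 and 204 CPM, 1.83-fold lower (1.75 to 1.93) and 1.54-fold lower (1.46 to 1.63). The large subunits of the F1 head differed from these: Atp5a1 was at 189, 199.98, 184 and 228 CPM and Atp5b at 226, 207, 241 and 222 CPM. Atp5a1 was higher and Atp5b lower in each LPS library than in either NaCl library. In complex IV, Cox6c was at 1035, 631, 1054 and 687 CPM, 1.64-fold lower (1.60 to 1.68) and 1.53-fold lower (1.49 to 1.58), Cox7c was at 843, 540.3, 907 and 647 CPM and Cox8a at 672, 435, 713 and 523 CPM. All were lower with LPS than with NaCl in both genotypes. Accessory complex I subunits lower with LPS included Ndufc1 (253, 144, 254 and 166 CPM), Ndufb3 (203, 134, 218 and 145 CPM) and Ndufa1 (93.3, 58.6, 104 and 70.6 CPM).

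A small number of members were higher with LPS in oligodendrocytes. Ndufv2, an iron-sulphur subunit of the NADH-oxidizing tip of complex I, was at 106, 142, 114 and 174 CPM, 1.34-fold higher (1.25 to 1.43) and 1.52-fold higher (1.42 to 1.64). Sdha was at 113, 125, 101 and 127 CPM, 1.11-fold higher (1.04 to 1.19) and 1.25-fold higher (1.16 to 1.36). Both genes were higher in each LPS library than in either NaCl library. Cox6a2 was near the floor of detection with NaCl, at 8, 88, 8 and 58 UMIs (0.744, 4.71, 0.715 and 5.98 CPM), so its ratio rests on 8 UMIs in each NaCl library.

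In this class, too, LPS and NaCl cells lay in different clusters, cluster 3 holding most NaCl oligodendrocytes and cluster 4 most LPS ones. The unnamed cluster 16, with the oligodendrocyte genes Klk6 and Enpp6 among its leading genes, held 382, 0, 566 and 4 cells and was left out of the class. LPS oligodendrocytes held more UMIs per cell (4794, 6794, 4969.8 and 5968), and the thinned median share per cell was 1.9%, 1.4%, 2% and 1.7%. Oligodendrocyte markers were at 33281, 19149.8, 34714 and 18484 CPM, lower with LPS. Choroid plexus markers (none of 6 at 0) were at 616, 235, 343 and 482 CPM, highest in APOE3 NaCl, and astrocyte markers (none of 8 at 0) at 386, 619.5, 387 and 1446 CPM, highest in APOE4 LPS. Their part in the result was not tested, and without cells that held markers of other main classes (kept: 67.9%, 49.8%, 68.1% and 54.8% of the cells) the members' share was 1.89%, 1.45%, 2.05% and 1.66%. The mitochondrially encoded subunits did not share the order of the nuclear ones, with medians of 0.16 and 0.055. Cytosolic ribosomal proteins had a median of -0.15 in APOE3 and a median close to 0 in APOE4, and biogenesis regulators 0.18 and 0.22, the highest of them Ppargc1a, the coactivator PGC-1alpha.

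In oligodendrocytes, ratios were lower under 600 nt of annotated transcript length than at 1200 to 2000 nt, within the list and outside it. Members under 600 nt had medians of -0.49 in APOE3 and -0.47 in APOE4 (18 genes), and members of 1200 to 2000 nt -0.15 and -0.16. Genes outside the list were at -0.40 and -0.26 under 600 nt and at -0.12 and -0.073 at 1200 to 2000 nt. Among longer members this order did not go on, except at 2000 to 4000 nt in APOE4: the 9 members of 2000 to 4000 nt were at -0.27 and -0.12 (other genes -0.037 and 0.040), and the 2 of 4000 nt or more at -0.48 and -0.41 (other genes 0.045 and 0.099). Across 87 members the correlation of the ratio with log length was 0.28 (Pearson) and 0.37 (Spearman) in APOE3 and 0.39 and 0.45 in APOE4, a description over genes that share libraries and depth and are not independent replicates. Set against genes of like length, the members' distance in oligodendrocytes was smaller than against all genes in each range up to 4000 nt, and larger for the pair of members above it.

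**Figure D4:**
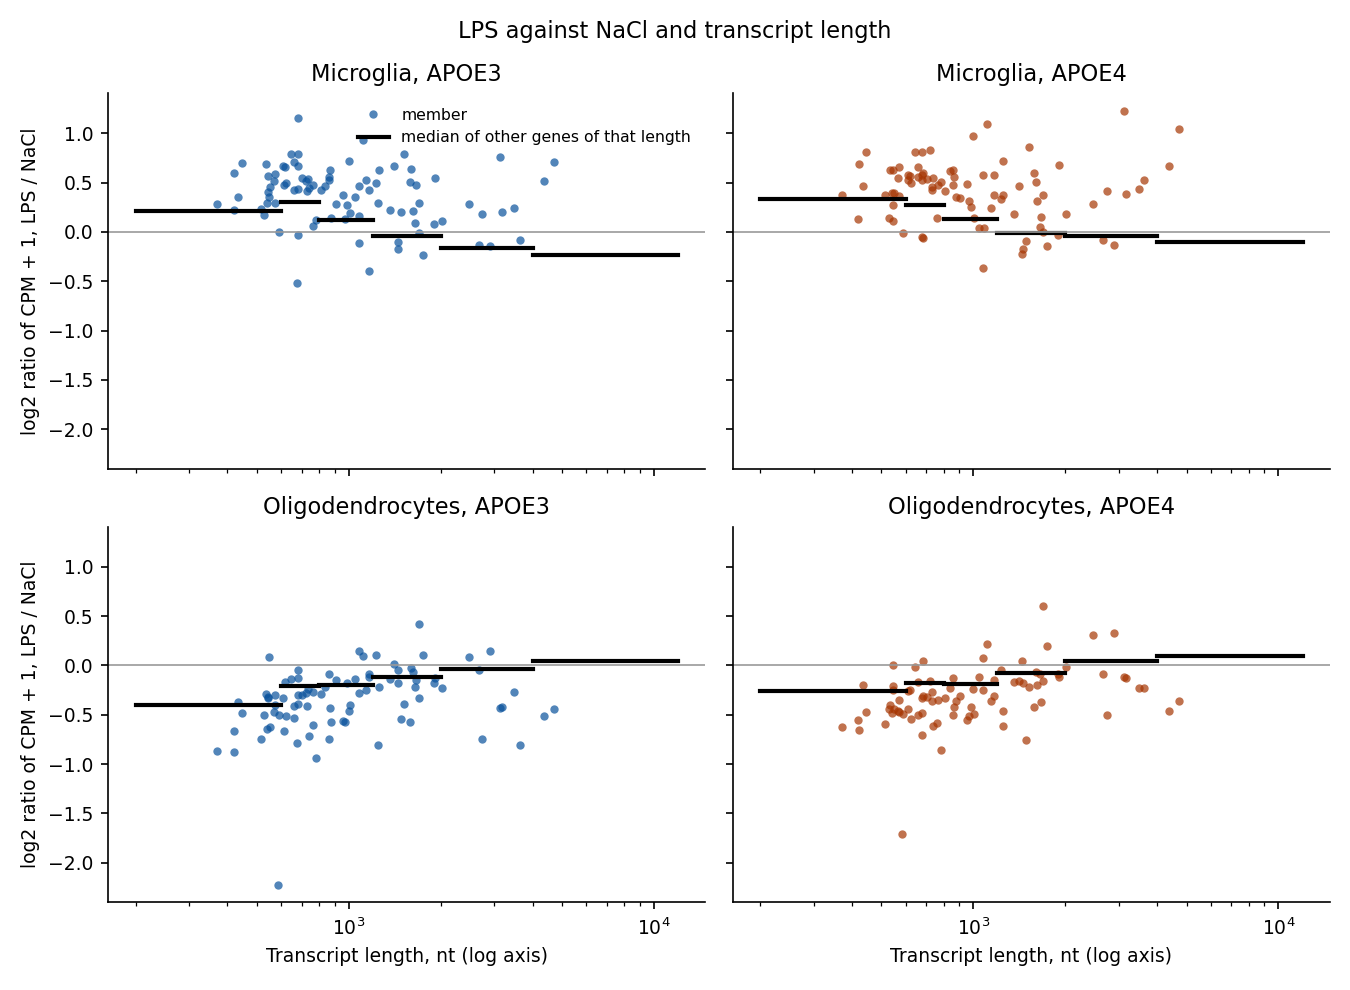
Log2 ratio of LPS to NaCl (y axis) against annotated transcript length (x axis, nt, log axis) in microglia and oligodendrocytes of each genotype; points are well counted members and black bars the medians of other genes of the same length range. In oligodendrocytes the bars of the longest genes lie above those of the shortest, and most points lie below 0, and in microglia most points lie above the bars.

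In microglia the short genes outside the list were also higher with LPS than the long ones, but the members' median lay above theirs in each length range. Medians of members and of other genes were 0.36 and 0.22 under 600 nt, 0.50 and 0.30 at 600 to 800 nt, 0.40 and 0.12 at 800 to 1200 nt and 0.29 and -0.044 at 1200 to 2000 nt in APOE3. The same pairs in APOE4 were 0.39 and 0.33, 0.54 and 0.27, 0.40 and 0.13, and 0.31 and -0.0077. At 2000 to 4000 nt the pairs were 0.18 and -0.16 in APOE3 and 0.38 and -0.037 in APOE4, and at 4000 nt or more (2 members) 0.61 and -0.23 in APOE3 and 0.85 and -0.10 in APOE4.

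Astrocytes, the class the study's title names, had smaller ratios than microglia and oligodendrocytes. Their share was 1.94% (1.94 to 1.95), 1.74% (1.73 to 1.75), 2.09% (2.09 to 2.10) and 1.82% (1.81 to 1.83) in 4240, 3244, 3655 and 2303 cells. The median over 93 members was -0.12 in APOE3 and -0.19 in APOE4, against -0.065 and -0.028 over all 16274 genes. None was past 1.5-fold in either direction in APOE3 (background 4.51% higher and 5.41% lower), and in APOE4 1 was lower (background 5.46%) and 0 higher (background 7.99%). At 1.2-fold, 23 and 29 members were lower and 2 were higher in each genotype, against backgrounds of 23.6% and 21.6% lower and 13.7% and 19.4% higher. The APOE3 count of lower members was thus near the background.

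The lowest ratios in astrocytes belonged to assembly factors and restricted copies. The gene past 1.5-fold in APOE4 was Cox6b2, at 36.5, 37.1, 35.7 and 23.3 CPM and 1.53-fold lower (1.30 to 1.81), and next to it was Ndufaf6, at 26.2, 24.6, 28.3 and 18.6 CPM and 1.52-fold lower (1.27 to 1.83). Both were lowest in APOE4 LPS and nearly level across the other libraries. Ndufaf4 was at 114, 79.2, 102 and 87.4 CPM, 1.44-fold lower (1.33 to 1.56) in APOE3, and Ndufaf2 at 78.2, 56.2, 77.5 and 60.8 CPM, 1.39-fold lower (1.27 to 1.53). Cox7a1, the heart and muscle form of a complex IV subunit, was at 9.70, 6.25, 11.1 and 7.46 CPM, 1.55-fold lower (1.18 to 2.06). For Ndufaf4, Ndufaf2 and Cox7a1 both LPS libraries were below both NaCl libraries. Of the folds by CPM, those of Ndufaf6 and Cox7a1 were under 1.5 on the log2(CPM + 1) scale.

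Astrocytes of all libraries shared clusters 1 and 2, in which the members' share was 1.80%, 1.54%, 1.93% and 1.73% (cluster 1) and 2.08%, 1.92%, 2.20% and 2.14% (cluster 2), lower with LPS within each genotype. Cluster 15, led by Gfap, a marker of reactive astrocytes, held 789 cells of APOE4 LPS at 1.66% and 185 of APOE3 LPS at 2.10%. Without cluster 15 the median in APOE4 was -0.12. Mitochondrially encoded subunits were higher with LPS in this class, with medians of 0.54 and 0.20 and a share of 3.38%, 4.91%, 3.83% and 4.14%, so the medians of nuclear and mitochondrial subunits were on opposite sides of 0. Citric acid cycle genes had medians of -0.014 and -0.10. Microglial markers (none of 8 at 0) were at 147, 278, 146 and 259 CPM in astrocytes, higher with LPS, and their part in the result was not tested.

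Endothelial cells had a members' share with little distance between groups, but single genes stood out. The medians were -0.049 and -0.023, over 91 members, against -0.10 and -0.020 over all 13204 genes. In APOE3, 2 members were past 1.5-fold higher and 4 lower (background 12% and 17.5%), and in APOE4 2 were higher and 3 lower (background 20.5% and 17.4%). These shares were below those of all measured genes in both directions. That background includes sparsely counted genes, whose counting error is larger, while 84 of the 91 members had a mean of at least 100 UMIs. No alternative moved these medians by more than the median half-width of the members' counting intervals, but both changed sign under some alternatives. They ran from -0.070 to 0.077 in APOE3 and from -0.070 to 0.17 in APOE4. Cycs was at 107, 170.4, 89.1 and 186 CPM, 1.59-fold higher (1.43 to 1.78) and 2.09-fold higher (1.78 to 2.46). Cox7a2l was at 207, 132, 234 and 118 CPM, 1.57-fold lower (1.42 to 1.72) and 1.99-fold lower (1.73 to 2.29). Cycs thus had the same order here as in microglia, and Cox7a2l was lower with LPS in both genotypes.

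Ndufaf7 was at 65.1, 41.9, 65.2 and 34.4 CPM in endothelial cells, 1.55-fold lower (1.31 to 1.84) and 1.89-fold lower (1.45 to 2.48). Ndufa12 was at 85.5, 108, 82.1 and 119 CPM, higher in each LPS library than in either NaCl library. Atp5e was at 608, 412, 619 and 500.3 CPM, lower with LPS. NaCl cells lay mostly in cluster 12 and LPS cells in cluster 14. Microglial markers (none of 8 at 0) were at 154, 546, 179.8 and 1546 CPM and astrocyte markers (none of 8 at 0) at 632, 814, 541 and 1909.9 CPM in this class, both highest in APOE4 LPS, and their part in the result was not tested. Without cells that held such markers the members' share was 1.87%, 1.92%, 1.96% and 1.97%. This turned the order in both genotypes, in APOE4 by little, but removed most LPS cells: 67.9%, 40.1%, 70.3% and 38.8% of the cells were kept.

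In choroid plexus cells (562, 529, 618 and 718 cells) the 90 measured members had medians of -0.15 in APOE3 and -0.57 in APOE4, but all genes together were at -0.0097 and 0.43. In APOE3, 3 members were past 1.5-fold lower (background 8.53%) and 0 higher (background 12%), and in APOE4 41 were lower (background 3.6%) and 0 higher (background 40.6%). The class held a pair of clusters with different shares. Cluster 9 was at 9.15%, 6.24%, 9.56% and 5.97%, and cluster 25, of cells with more UMIs (median 17271 against 4852), at 4.62%, 3.58%, 5.12% and 3.40%. Both clusters were lower with LPS in each genotype. Cluster 25 held 163 cells of APOE3 NaCl and 60 to 76 of each other library, and within cluster 9 alone the APOE3 median was -0.40, with 23 members past 1.5-fold lower (background 6.49%).

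With NaCl, members were higher in APOE4 choroid plexus cells, with a median of 0.38 against -0.38 over all genes, 4 past 1.5-fold higher (background 1.94%) and 0 lower (background 34.4%). Within cluster 9 that median was 0.077, and the difference of the LPS effect, -0.39 in the class, was -0.15, so both genotype values were smaller where 1 cluster was compared. With median-of-ratios size factors the median with NaCl was 0.72, and 73 members were past 1.5-fold higher (background 9.96%). Atp5g1 was at 2478, 1622, 3214 and 1478 CPM, 1.53-fold lower (1.48 to 1.57) with LPS in APOE3 and 2.17-fold lower (2.12 to 2.23) in APOE4, and Cox7a1 at 122, 50.8, 193 and 59.6 CPM, 2.41-fold lower (2.07 to 2.81) and 3.23-fold lower (2.84 to 3.69). Both were highest in APOE4 NaCl and lower in each LPS library than in either NaCl library.

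A few genes made up much of the choroid plexus total: the summed choroid plexus markers (with Ttr, transthyretin) were at 287825, 278358, 326977 and 255600.0 CPM. They were highest in APOE4 NaCl and lower in each LPS library than in either NaCl library, and the shares of all genes in a class add up to a fixed total. Microglial markers (none of 8 at 0) were at 295, 1552, 182 and 2115 CPM, higher with LPS. The part of either in the result was not tested.

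Complex IV has copies of several subunits that are known for restricted expression. Cox4i2, a form known from lung and vessel walls, was at 202, 157, 326 and 173 CPM in pericytes and 53.6, 82.4, 103 and 16.1 CPM in smooth muscle cells, against 3.32 to 5.46 CPM in astrocytes. Its partner Cox4i1 was at 531, 529.7, 501 and 591 CPM in pericytes and 526, 482, 553 and 509 CPM in astrocytes. Ndufa4l2, a relative of the complex IV subunit Ndufa4, had the same location, with 328, 284, 516 and 291 CPM in pericytes and 75.0003, 198, 124 and 145 CPM in smooth muscle cells. The smooth muscle levels rest on few counts. They were 5, 5, 10 and 1 UMIs for Cox4i2 and 7, 12, 12 and 9 UMIs for Ndufa4l2. The single Cox4i2 UMI of APOE4 LPS is below the 48.4 CPM that 3 counts make in that library. The order of the smooth muscle libraries is therefore not read for either gene. In pericytes, both restricted genes were lower in each LPS library than in either NaCl library, while the level of Cox4i1 overlapped between LPS and NaCl. The pericyte class held 306, 394, 210 and 180 cells. In endothelial cells Ndufa4l2 was at 18.1, 15.4, 18.8 and 19.0 CPM and Cox4i2 at 12.02, 6.96, 8.64 and 7.92 CPM, where summed pericyte markers (none of 6 at 0) were at 920.1, 698, 812 and 595 CPM, and the part of those markers in these levels was not tested.

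**Figure D5:**
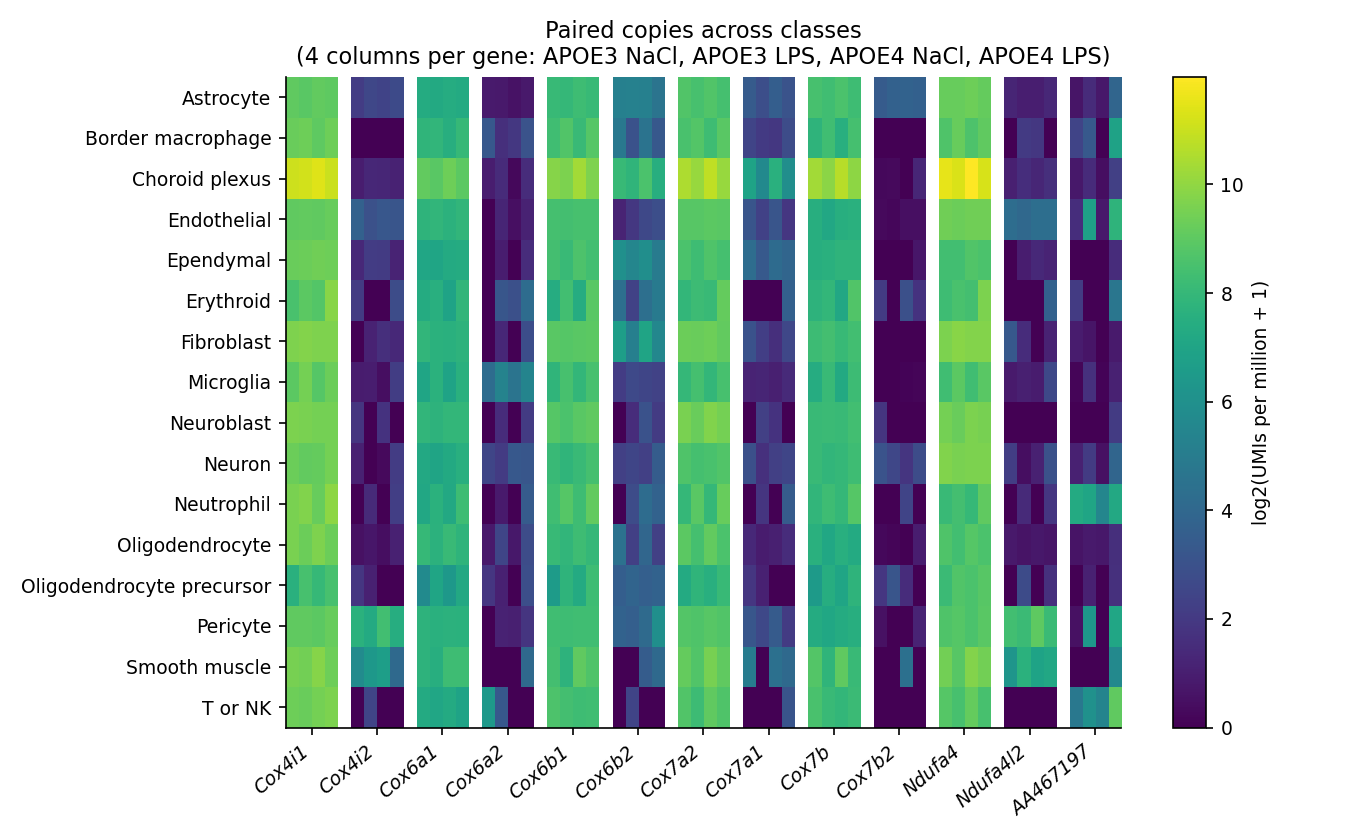
Level of restricted copies and of their widely expressed partners (colour, log2 of CPM + 1) by gene (x axis, 4 columns per gene for the 4 libraries) and cell class (y axis). Cox4i2 and Ndufa4l2 are brightest in pericytes, Cox6a2 in microglia and in 1 library of T or NK cells, and AA467197 is bright in both LPS columns and dark in both NaCl columns of endothelial cells and pericytes.

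The plot of paired copies shows Cox6a2, the heart and muscle form of its subunit, in microglia, at 17.6, 40.3, 23.5 and 41.8 CPM beside 131, 198, 122 and 193 CPM of its partner Cox6a1. Cox6a2 was 2.29-fold higher (2.001 to 2.62) with LPS in APOE3 and 1.78-fold higher (1.53 to 2.07) in APOE4, and both LPS libraries were above both NaCl libraries. In neurons it was at 4.66, 3.18, 8.92 and 8.31 CPM, and in T or NK cells it was found with 13, 2, 0 and 0 UMIs. Cox7b2, known from testis, was at 9.70, 12.04, 12.8 and 11.9 CPM in astrocytes and 7.38, 4.95, 2.58 and 5.85 CPM in neurons, and fewer than 10 of its UMIs were counted in each library of microglia, endothelial cells and oligodendrocytes. Cox6b2 was at 267, 224, 379.8 and 184 CPM in choroid plexus cells, 103, 35.6, 127 and 46.5 CPM in fibroblasts and 64.0, 44.6, 60.2 and 31.0 CPM in ependymal cells, lower in each LPS library than in either NaCl library. Cox7a1 was at 18.8, 9.01, 17.1 and 13.9 CPM in ependymal cells.

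AA467197, the mouse gene of NMES1 and a relative of Ndufa4 known to respond to inflammation, is outside the symbol rule and was followed beside its partner. In endothelial cells it was at 1.97, 113, 0.785 and 219 CPM, in pericytes at 0.462, 79.0, 0 and 137 CPM and in border macrophages at 4.49, 9.16, 0 and 119 CPM. A count of 0 allows up to 3.28 CPM in pericytes and 8.36 CPM in border macrophages of APOE4 NaCl (3 counts per library). Every LPS library of these classes was above every NaCl library, by 9 against 2 UMIs in APOE3 border macrophages. It was also counted in neutrophils, at 157, 133, 44.2 and 151 CPM, and in T or NK cells, at 26.8, 66.6, 41.8 and 534 CPM, where NaCl libraries held it too. Ndufa4 in endothelial cells was at 659, 622, 669 and 657 CPM, with no such distance. Summed neutrophil markers were at 0.874, 22.1, 2.75 and 44.7 CPM in endothelial cells (5, 1, 4 and 3 of 6 at 0). T or NK markers there were at 0.219, 1.66, 0 and 0.792 CPM (5, 2, 6 and 4 of 6 at 0). The part of such cells in the AA467197 levels was not tested. In microglia, AA467197 was at 0.135, 2.20, 0.0717 and 1.14 CPM and Ndufa4 at 312, 496, 319 and 476 CPM.

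With NaCl alone the members differed little between genotypes in astrocytes, microglia, endothelial cells and oligodendrocytes, unlike in choroid plexus cells, whose values are given above. Medians of APOE4 to APOE3 were 0.10 in astrocytes, 0.012 in microglia, 0.088 in endothelial cells and 0.11 in oligodendrocytes, against -0.010, -0.024, -0.026 and -0.0056 over all genes. Past 1.5-fold higher were 0 of 93 members in astrocytes (background 1.24%), 1 of 91 in endothelial cells (background 4.29%) and 1 of 92 in oligodendrocytes (background 2.53%). As far lower were 0, 0 and 0 (background 2.08%, 6.54% and 1.82%). In oligodendrocytes the higher gene was Ndufa3. In endothelial cells it was Cox6b2, on 6, 17, 13 and 16 UMIs.

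Ndufa3, an accessory subunit of complex I, was higher in APOE4 NaCl than in APOE3 NaCl in each of the 6 classes examined. It was at 241, 143, 365 and 241 CPM in oligodendrocytes, 1.51-fold higher (1.44 to 1.59) in APOE4 NaCl, and at 150.3, 123, 205 and 182 CPM in astrocytes, 1.36-fold higher (1.29 to 1.44). In microglia it was at 118, 139, 148 and 192 CPM, 1.26-fold higher (1.18 to 1.34), and in endothelial cells at 159, 118, 234 and 173 CPM, 1.47-fold higher (1.32 to 1.64). The same order held in choroid plexus cells (546, 433, 879.5 and 572 CPM) and border macrophages (142, 147, 206 and 239.7 CPM). In the LPS libraries, too, APOE4 was above APOE3 in each of these classes. Ndufa3 lies at chr7:3617373-3620327 (plus strand, annotation of build GRCm38.p6) on the chromosome that carries Apoe, at chr7:19696109-19699188. The other members on chromosome 7 are Cox6b2, Cox7a1, Cox6b1, Ndufc2, Uqcrc2, Ndufab1 and Cox6a2. Whether the lines differ near the replaced locus was not tested.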

How the data were processed

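The authors deposited raw counts of UMIs per gene and barcode, and the file headers name Cell Ranger 7.0.1 while the submitters' processing notes name version 7.0 and build mm10. Per the labels' protocols, libraries used 3′ chemistry of 10x Genomics and a NovaSeq instrument. How reads that fit both a member and a processed pseudogene or near-identical copy were counted, whether intronic reads were included and whether strand was used is not given in the sources used here. Groups came from the sample titles.

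Barcodes passed with 500 genes or more, 1000 UMIs or more and no more than 20% of UMIs from mitochondrial DNA: 14404 and 15060 in APOE3 (NaCl, LPS) and 13071 and 18182 in APOE4. Doublets were scored by Scrublet's scheme (0.8% expected per 1000 barcodes), with coordinates put on a grid so that distances are exact. It marked 1406, 1315, 1069 and 7 of these, which were removed except the 7. All libraries were clustered together without integration, on the 2000 most variable genes other than members (30 principal components, 15 neighbours, Leiden at resolution 1 in igraph 0.11.9, the run of highest modularity among 10, with scanpy 1.11.5). Single runs with seed 1 or seed 2, stopped after 2 iterations where the main runs went to convergence, placed more cells of APOE4 LPS among microglia. The closing part gives the values under these 2 runs, which thus differ from the main run in more than the seed. A cluster took the name of 1 of 20 cell types when 3 and at least 50% of its markers were 2-fold above other clusters and present in 25% of cells, unless another type's markers led its genes. The condition of 50% was set after seeing the data and keeps cluster 10 (0, 360, 1 and 1489 cells), which passed 3 of 8 microglial markers, out of the microglia.

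Ratios of CPM have exact conditional binomial (Clopper-Pearson) 95% intervals (scipy 1.17.1), and differences of LPS effects an approximate log-scale interval. With 1 library per group there is no replicate check, and no test or p-value is given. Counts past a fold use log2(CPM + 1), a pseudocount of 1. Each NaCl library enters both the LPS comparison of its genotype and the comparison of genotypes, so these are not independent. Scripts were tested on simulated data.

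The members and all gene lists were chosen with earlier results of these data known. Genes named singly are, per main class and comparison, the 3 highest and 3 lowest log2 ratios and any past 1.5-fold among members with a mean of at least 100 UMIs over the 4 libraries. Restricted copies with their partners, Cox7a2l, Cycs, complex II and the synthase inhibitor could be named in every class. Other members named beside them, such as Atp5g2, Cox6b1 and those of choroid plexus cells and border macrophages, were chosen after their values were seen. Not every gene that the rule picks is reported here.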

Additional observations from a re-analysis of the deposited data

Results flagged for a closer look

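A difference between genotypes in the LPS response, with the intervals of both genotypes on opposite sides of no change, was seen for 3 well counted members. Cox7a2l in microglia was 1.12-fold higher (1.07 to 1.17) with LPS in APOE3 and 1.29-fold lower (1.202 to 1.38) in APOE4, a difference of -0.52 on the log2 scale. Ndufaf5, an assembly factor of complex I, was in microglia 1.36-fold lower (1.11 to 1.67) with LPS in APOE3 and 1.57-fold higher (1.15 to 2.12) in APOE4, a difference of 0.98, and rests on 159, 255, 90 and 89 UMIs. Atp5a1, the alpha subunit of the F1 head, was in endothelial cells at 228, 202, 207 and 235 CPM, 1.13-fold lower (1.04 to 1.22) with LPS in APOE3 and 1.14-fold higher (1.01 to 1.28) in APOE4, a difference of 0.35. Each is a contrast of 4 single libraries with counting intervals alone, among 88 well counted members in microglia and 84 in endothelial cells, and none of these differences was tested.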

How the results depend on the processing

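No paired analysis was possible because each group was 1 library, and no replicate could be left out. The processing was varied in 12 ways, which gave 183 medians over members in the main classes. Of these, 176 differed from the reported one by less than the median half-width of the members' own log2 counting intervals. Of 200 medians from alternatives chosen after seeing the data, 186 did so. This yardstick is the counting error of single genes. It holds no variation between mice or libraries and is not a replicate spread. The medians that moved further follow. In microglia, LPS against NaCl in APOE3 had a median of 0.41, which was 0.56 with median-of-ratios size factors and -0.063 within cluster 6 alone. In APOE4 it was 0.43, and 0.63 with called doublets kept, 0.64 with members among the variable genes, 0.56 with clustering seed 1, 0.70 with seed 2 and 0.80 with the unnamed cluster 10. The difference of the LPS effect in microglia, 0.051, was 0.23 with doublets kept, 0.23 with members among the variable genes, 0.28 with seed 2 and 0.36 with cluster 10. In oligodendrocytes LPS in APOE4 was -0.19 with each cell weighted alike, against -0.29.

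In choroid plexus cells, LPS in APOE3 (-0.15) was -0.40 within cluster 9 alone. LPS in APOE4 (-0.57) was -0.47 with a mitochondrial limit of 10%, -0.87 with median-of-ratios factors and -0.48 with seed 2. The NaCl comparison of genotypes (0.38) was 0.72 with these factors, 0.21 with each cell weighted alike and 0.077 within cluster 9. The difference (-0.39) was -0.72 with the factors and -0.15 within cluster 9. No median of astrocytes, endothelial cells or border macrophages moved in this sense. The half-width is that of single genes, so a median near 0 could change sign without counting as moved. Endothelial LPS medians ran from -0.070 to 0.077 in APOE3 and from -0.070 to 0.17 in APOE4. Those of border macrophages ran from 0.16 to 0.36 in APOE3 and from 0.33 to 0.71 in APOE4.

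Counts past 1.5-fold moved more than medians. Over all alternatives 0 to 41 members were higher with LPS in APOE3 microglia and 17 to 62 in APOE4, and 0 to 19 were higher in the difference. In oligodendrocytes 11 to 19 and 3 to 11 were lower, in endothelial cells 1 to 3 and 1 to 8 were higher and 1 to 4 and 2 to 5 lower, and in astrocytes 0 to 2 and 0 to 2 were lower. Choroid plexus cells had 1 to 23 and 20 to 77 lower with LPS and 0 to 73 higher in APOE4 NaCl, and border macrophages 5 to 26 and 18 to 55 higher. Relative to the median of all genes under the same setting, the microglial median was -0.072 to 0.59 in APOE3 and 0.42 to 0.96 in APOE4, and that of oligodendrocytes -0.32 to -0.18 and -0.37 to -0.23.

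Among single genes named in the main classes and past 1.5-fold as reported, 7 values changed sign, all within microglial cluster 6 in APOE3. There they were Atp5e -0.12, Atp5g1 -0.36, Cox5a -0.087, Cox7b -0.061, Cycs -0.52, Ndufb6 -0.29 and Uqcr11 -0.16. Changes of sign of genes under 1.5-fold were not counted. The alternatives of choroid plexus cells and border macrophages, the minimum mean of 100 UMIs and the 2 single-seed clustering runs were chosen after seeing the data. So were classes without cells that held markers of other main classes, classes without clusters mostly of APOE4 LPS and classes with an unnamed cluster. The single-cluster alternative was not run for the LPS comparisons of endothelial cells and oligodendrocytes or for APOE4 microglia, where the cluster chosen, that with the most cells in its smallest library, held fewer than 50 cells of a library. The cause of these shifts was not tested.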

Other observations

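The other named classes were not among the 6 compared above, and their members are given as values only, over members with a mean of at least 100 UMIs. This filter uses raw UMIs, so it favours genes that are high in the libraries with most UMIs of the class. Medians of all genes are not set beside these values. Medians of the log2 ratio of LPS to NaCl in APOE3 and APOE4 were -0.26 and 0.12 in neurons, -0.14 and -0.093 in pericytes, -0.16 and -0.24 in ependymal cells, 0.47 and 0.86 in neutrophils and -0.26 and -0.064 in neuroblasts. The neuron class included cluster 22 (median 1720 UMIs), with 0, 5, 4 and 474 cells of the 4 libraries. The part of this cluster in the APOE4 value of neurons was not tested. Oligodendrocyte precursors had medians of 0.87 and 0.64 over 15 members. The medians of mature oligodendrocytes given above were taken over all measured members, without the filter of 100 UMIs, and are not compared with these. Without the medians of all genes, a shift of the precursors' members is not told apart from one of all genes. The precursor class held 368148, 891799, 525428 and 468393 UMIs, most in APOE3 LPS, which weighs on the choice of these members. Cox4i1 was at 193, 354, 257 and 361 CPM and Cox6a1, which is outside those members with 19, 118, 44 and 70 UMIs, at 51.6, 132, 83.7 and 149 CPM. Both LPS libraries were above both NaCl libraries for each gene, in 137, 232, 164 and 105 cells.

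Cox8b, the heart and muscle form of the subunit whose other form is Cox8a, is outside the symbol rule and was picked after its values were seen. In choroid plexus cells it was at 458, 689.8, 888 and 587 CPM beside 4575, 3258, 5479 and 3298 CPM of Cox8a. It was thus higher with LPS in APOE3 and lower in APOE4, while Cox8a was lower with LPS in both genotypes. Cox8b was among the 10 leading genes of choroid plexus cluster 9 and not of cluster 25. Cluster 25 held 163 cells of APOE3 NaCl and 60 to 76 of each other library. The part of this mix of clusters in the order of Cox8b was not tested.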
